A study of Mus musculus with 6 samples.

Results

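The genes described here are 33 genes of white adipocytes, of lipid storage and of fat breakdown, taken by gene symbol from a deposited expression table of 18939 genes; all 33 were found. Messenger RNA of mouse skin was measured in 6 libraries. The 3 CKO libraries (replicates 1, 2 and 5) carry the genotype label of a VAMP7 knockout in basophils, and the 3 libraries titled FLOX (replicates 2, 3 and 5) carry the label wildtype. VAMP7 is a membrane fusion protein of vesicles, and basophils are rare granulocytes of allergic inflammation. By its title the series used the MC903-OVA model, in which calcipotriol, a vitamin D analogue, inflames the skin and ovalbumin serves as antigen. What drives the deletion, the age of the mice, the treatment of each library, the dose and the time are not known from the labels. No group labelled as untreated skin was analysed here. The comparison asks how lipid genes of the skin in this series differ when basophils carry the deletion.

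Mouse skin holds a layer of white adipocytes below the dermis, which grows and shrinks with the hair cycle. An adipocyte takes up fatty acids and glucose, joins fatty acids to a glycerol backbone and keeps the triglyceride in a droplet coated by perilipins. Lipases release it again on hormonal demand, and the cell secretes hormones called adipokines. Many of these genes also serve other cells. Sebocytes, the lipid cells of the sebaceous gland, use Cidea in the mouse, capillary endothelium and macrophages use Fabp4 and Cd36, and skeletal muscle uses Slc2a4, Lpl and Car3.

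Levels are FPKM, fragments per kilobase of gene scaled to the mapped fragments of a library, and summed to 556412 to 594987 per library. Read depth is unknown, so no counting interval is given. Vamp7 itself, in whole skin, measured 19.71, 19.11 and 19.73 FPKM in CKO replicates 1, 2 and 5 and 20.4, 21.51 and 20.77 FPKM in FLOX replicates 2, 3 and 5 and did not pass the test. Its values check the labels only weakly, because other skin cells express it. Krt14, a keratin of basal epidermis, measured 3387 to 4141 FPKM over the 6 libraries, so the tissue had its defining marker.

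Of the 33 genes, 3 rose in CKO skin and none fell. These were Acsl1, which activates fatty acids by joining them to coenzyme A, Gpam, the mitochondrial enzyme of the first step of triglyceride synthesis, and Ces1d, a carboxylesterase that hydrolyses triglyceride. Over all 12994 genes tested, 0.354% rose and 0.6% fell (limma on log2(FPKM + 1), Benjamini-Hochberg adjusted p under 0.05), which is 46 and 78 genes, or 42 and 116 with median-ratio scaling of the libraries. The filter for the test, at least 1 FPKM in at least 3 libraries, kept 29 of the 33 genes, and the other 26 tested genes did not pass. Pnpla3 got through the filter by its CKO libraries alone, so it had to be higher there. The CKO mean exceeded the FLOX mean in 30 of the 33 genes, and the exceptions were Dgat1, Agpat2 and Ucp1. The median log2 fold change was 0.61 over the 29 tested genes and 0.56 over all 33, beside 0.03 over all tested genes, and 56.1% of those had a positive value. At an unadjusted p under 0.05, 17 of the 29 were higher and none lower, against 12.6% and 8.94% of all tested genes. The 30, the 17 and both medians include Pnpla3. In bulk skin, more adipocytes and more RNA of these genes per cell cannot be told apart.

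The 3 calls stood at the edge of the threshold, each with an adjusted p of 0.047, the smallest in the table. All 3 were lost (limma, 0 of the 33 passing) with no filter, quantile normalization, no intensity trend or robust empirical Bayes. At an unadjusted p under 0.05, 14 of the 33 were higher with no filter, and 17 of the 29 tested in each of the others. Over all genes 2058 were higher and 1318 lower of 18939 with no filter. Of 12994 genes, 1289, 1675 and 1635 were higher and 1343, 1126 and 1155 lower in the others, in the order named. When FLOX replicate 2 or FLOX replicate 3 was left out, no gene of the table passed in limma. At an unadjusted p under 0.05, 11 and 13 of the 29 tested were then higher and 0 and 1 lower. Over all genes 1119 of 12943 and 1436 of 12919 were higher, and 878 and 963 lower. Without CKO replicate 2 or FLOX replicate 5 none of the 33 passed. Without CKO replicate 1 only Acsl1 of the 33 passed, beside 69 higher and 65 lower of all 12871 genes tested in that fit. Pnpla3 fell below the filter when any CKO library was left out. Without CKO replicate 5 the count was 9, with Cidec, Pcx, Plin4, Retn, Slc2a4 and Thrsp beside the same 3 genes. Calls rose over the whole table in that fit, to 225 higher and 192 lower of 12903 genes. Replicate 5 was the lowest CKO library for 25 of the 33 genes, so leaving it out raises their CKO means.

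**Figure D1:**
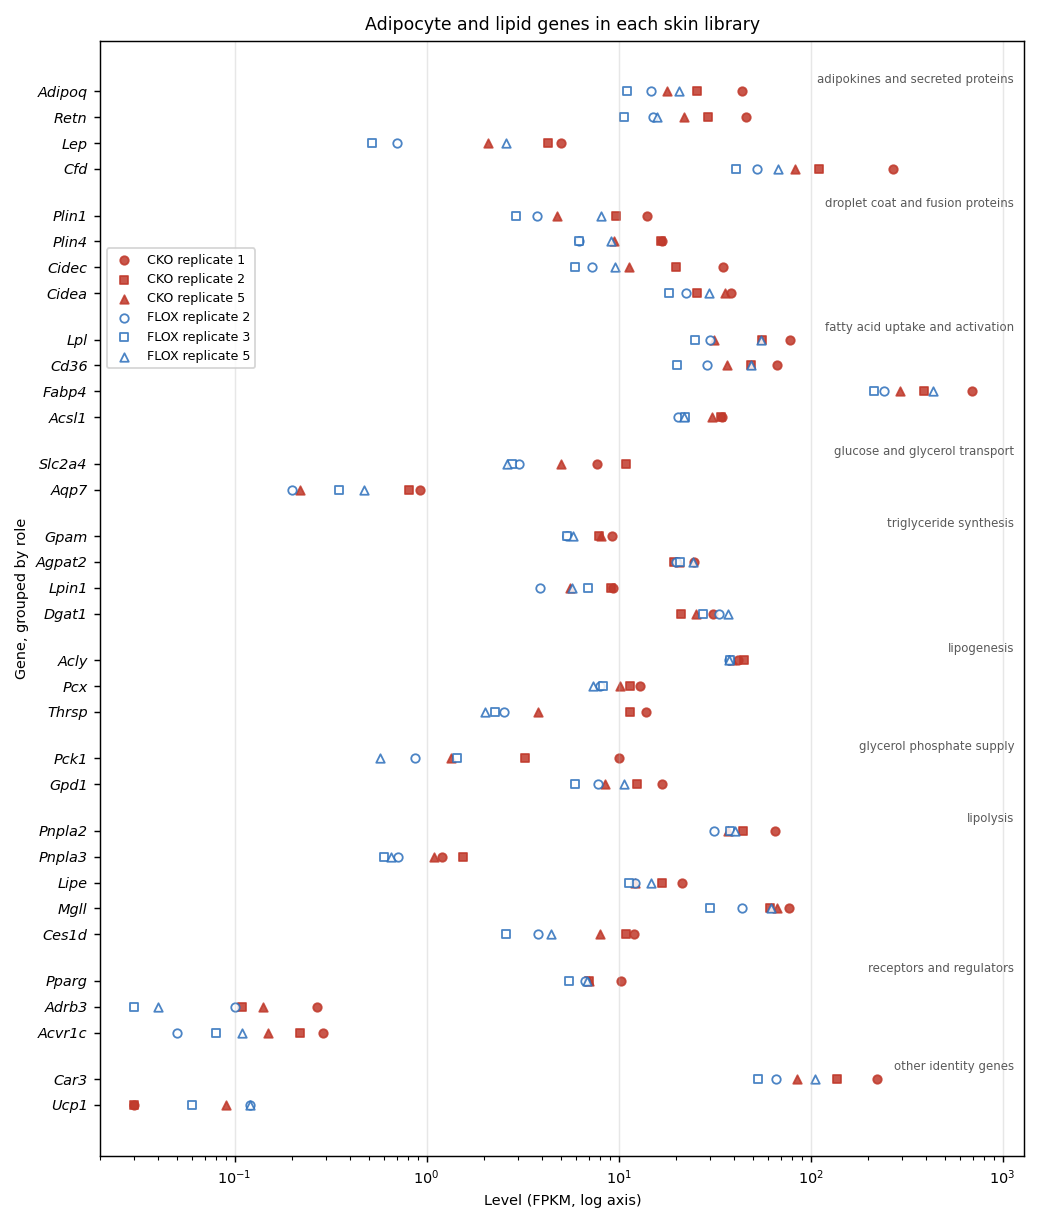
Level of each of the 33 genes in each library (FPKM, log axis), grouped by role; filled red symbols are the 3 CKO libraries and open blue symbols the 3 FLOX libraries. CKO replicate 1 is the highest library for 28 genes, and FLOX replicate 3 the lowest for 19.

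CKO replicate 1 was the highest of the 6 libraries in 28 genes, CKO replicate 2 in 3 (Slc2a4, Acly and Pnpla3), FLOX replicate 2 in Ucp1 and FLOX replicate 5 in Dgat1. Within the CKO group replicate 5 was the lowest in 25 genes. Within the FLOX group replicate 5 was the highest in 23. The full order within both groups (CKO replicate 1, 2, 5 and FLOX replicate 5, 2, 3, from high to low) was shared by 14 genes, among them Adipoq, Plin1 and Fabp4. Over all 33, CKO replicate 5 was above FLOX replicate 5 in 18 genes and below it in 15. Every CKO value exceeded every FLOX value in 15 of the 33 genes (13 of the 29 tested), a separation found in this direction in 15.5% of all tested genes, and no gene of the 33 was separated in the other direction, against 11.4%. The 13 include Pnpla3, whose separation was fixed by the way it passed the filter. The 15 also include Adrb3 and Acvr1c, which measured only 0.03 to 0.29 FPKM.

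All 4 adipokine genes were highest in CKO replicate 1 and lowest, within the CKO group, in replicate 5. Adipoq encodes adiponectin, an insulin-sensitising hormone made by adipocytes. It measured 43.86, 25.59 and 17.91 FPKM in CKO replicates 1, 2 and 5 and 14.8, 11.11 and 20.57 FPKM in FLOX replicates 2, 3 and 5. The groups overlapped, because FLOX replicate 5 lay above CKO replicate 5, and the difference did not pass (log2 fold change 0.82, SE 0.32, adjusted p = 0.2). Without CKO replicate 1 the log2 fold change of Adipoq was 0.48.

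Retn, which encodes resistin, an adipocyte hormone in mice, measured 46.22, 29.31 and 21.91 FPKM in CKO skin and 15.12, 10.72 and 15.81 FPKM in FLOX skin. All CKO values were above all FLOX values, without passing the test (log2 fold change 1.12, SE 0.26, adjusted p = 0.0678). Cfd, complement factor D or adipsin, a protease that adipocytes secrete, was also apart between the groups. Its CKO values were 267.77, 110.12 and 83.27 FPKM and its FLOX values 52.7, 40.94 and 67.74 FPKM (log2 fold change 1.34, adjusted p = 0.112). The Cfd mean of CKO skin (153.7 ± 99.7 FPKM, SD, n = 3) was 2.86 times that of FLOX skin (53.8 ± 13.4 FPKM), and its log2 fold change was 0.85 without CKO replicate 1. Without CKO replicate 5 Retn passed (log2 fold change 1.36, adjusted p = 0.0385).

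Lep encodes leptin, the hormone that reports fat stores to the brain. It measured 5.01, 4.28 and 2.09 FPKM in CKO and 0.7, 0.52 and 2.59 FPKM in FLOX skin. FLOX replicate 5 was about 4.98 times FLOX replicate 3 and stood above CKO replicate 5, and the difference did not pass (log2 fold change 1.13, adjusted p = 0.131). The 250 bases before its annotated start hold the palindrome of the C/EBP factors, transcription factors of adipocyte differentiation, and are shown because it was the only window among these genes with that palindrome (chr6:29059971-29060220, plus strand, RefSeq, build GRCm38.p6, 5′ to 3′, match in capitals).
Lep: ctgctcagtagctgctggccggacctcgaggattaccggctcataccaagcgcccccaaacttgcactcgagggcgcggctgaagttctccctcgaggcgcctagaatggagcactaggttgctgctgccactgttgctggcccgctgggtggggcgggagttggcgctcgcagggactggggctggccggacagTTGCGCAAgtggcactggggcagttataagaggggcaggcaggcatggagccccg
The match TTGCGCAA begins 55 bases before the start. It was in 0.164% of the 32851 windows of the same kind in the genome, and a match is a description of the letters and not a bound site.

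Of the 4 droplet genes, Plin1, Plin4 and Cidec had the adipokines' order within the CKO group and Cidea did not. Plin1, the perilipin that guards the adipocyte droplet against lipases, measured 13.99, 9.69 and 4.81 FPKM in CKO and 3.77, 2.94 and 8.06 FPKM in FLOX skin. The groups overlapped (log2 fold change 0.82, SE 0.40, adjusted p = 0.29), and the log2 fold change was 0.51 without CKO replicate 1. Plin4, a perilipin of fat and muscle, measured 16.9, 16.62 and 9.52 FPKM and 6.25, 6.2 and 9.14 FPKM, with CKO replicate 5 only just above FLOX replicate 5 (adjusted p = 0.0834).

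Cidec, which fuses small droplets into the large droplet of white adipocytes, measured 35.09, 19.88 and 11.3 FPKM in CKO and 7.27, 5.9 and 9.6 FPKM in FLOX skin. The groups were apart, and the difference did not pass with all libraries (log2 fold change 1.31, SE 0.36, adjusted p = 0.0902). Without CKO replicate 5 both Cidec (log2 fold change 1.70, adjusted p = 0.0346) and Plin4 (1.13, adjusted p = 0.0332) passed. Cidea, its relative in brown fat and sebocytes, had another order of libraries, with 38.33, 25.64 and 35.75 FPKM in CKO and 22.47, 18.43 and 29.72 FPKM in FLOX skin. CKO replicate 5 was here nearly as high as CKO replicate 1 (log2 fold change 0.49, adjusted p = 0.212).

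Windows of Cidec and Plin1 hold the looser C/EBP pattern TTNNGCAA on one or the other strand and are shown beside Lep as the droplet genes with this pattern (Cidec chr6:113434765-113435014, minus strand, the start nearer the gene's end of 2 annotated starts; Plin1 chr7:79732777-79733026, minus strand; RefSeq, build GRCm38.p6, 5′ to 3′, matches in capitals).
Cidec: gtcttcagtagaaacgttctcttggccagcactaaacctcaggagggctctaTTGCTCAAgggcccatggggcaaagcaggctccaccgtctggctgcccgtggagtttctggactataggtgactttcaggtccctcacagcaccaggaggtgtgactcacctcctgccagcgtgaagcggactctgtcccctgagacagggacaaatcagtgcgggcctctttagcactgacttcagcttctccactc
Plin1: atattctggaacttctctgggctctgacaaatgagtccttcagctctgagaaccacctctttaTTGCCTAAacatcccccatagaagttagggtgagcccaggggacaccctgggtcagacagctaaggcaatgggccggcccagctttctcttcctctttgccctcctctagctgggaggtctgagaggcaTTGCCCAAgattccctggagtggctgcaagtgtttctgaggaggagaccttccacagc
Cidec has 1 match, 198 bases before the start, and Plin1 has 2, at 187 and 58 bases before it. Among the genes described, 24 had windows in the RefSeq table (34 windows), and this pattern was in 4 of the 34 windows (11.8%) and in 9.56% of all windows. The direct repeat AGGTCANAGGTCA, read by PPAR gamma with its partner RXR, was in 0 of the 34 and in 0.0335% of all windows, which says only that these letters are not within 250 bases of those starts.

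Among the genes of fatty acid uptake the abundant carriers overlapped between groups and the activating enzyme did not. Fabp4, the fatty acid binding protein of adipocytes, was the most abundant of the 33 genes, with 690.99, 391.73 and 293.14 FPKM in CKO and 241.36, 213.2 and 434.59 FPKM in FLOX skin. FLOX replicate 5 exceeded CKO replicates 2 and 5 (log2 fold change 0.61, SE 0.36, adjusted p = 0.377). The log2 fold change of Fabp4 was 0.27 without CKO replicate 1 and 0.92 without FLOX replicate 5.

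Lpl, the lipase that frees fatty acids from lipoproteins at the vessel wall, measured 78.54, 55.64 and 31.48 FPKM and 29.92, 25.12 and 55.23 FPKM (log2 fold change 0.56, adjusted p = 0.432). Cd36, a fatty acid translocase, measured 66.77, 49.25 and 36.64 FPKM and 28.8, 20.2 and 49.17 FPKM (log2 fold change 0.67, adjusted p = 0.282). In both genes FLOX replicate 5 was close to CKO replicate 2. The log2 fold change of Lpl was 0.27 without CKO replicate 1, 0.34 without FLOX replicate 3, 0.91 without CKO replicate 5 and 0.89 without FLOX replicate 5, and that of Cd36 was 0.38 without FLOX replicate 3. Capillary endothelium uses both, and none of its 10 markers passed (median log2 fold change 0.14). Gpihbp1, which holds Lpl on capillary walls and was singled out after its values were seen, measured 10.3, 14.21 and 9.01 FPKM in CKO and 8.1, 7.56 and 7.77 FPKM in FLOX skin (adjusted p = 0.145). Pecam1, an adhesion molecule of endothelium, measured 37.3 to 54.7 FPKM in CKO and 39.0 to 46.0 FPKM in FLOX skin and Egfl7, which endothelium secretes, 17.3 to 24.3 and 16.4 to 20.8 FPKM. The summed level of the 10 endothelial markers was 134.5 to 190.9 FPKM in CKO and 133.1 to 154.9 FPKM in FLOX skin. The part of endothelium in the values of Lpl and Cd36 was not tested.

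Acsl1 rose, with 34.44, 34 and 30.59 FPKM in CKO against 20.49, 22.18 and 21.82 FPKM in FLOX skin. Libraries of a group lay close together, and the means were 33.01 ± 2.11 and 21.5 ± 0.890 FPKM (SD, n = 3), a ratio of 1.54. The log2 fold change was 0.60 (SE 0.08, limma adjusted p = 0.047), and it was 0.56 to 0.65 with each library left out. It did not pass without CKO replicate 2 (adjusted p = 0.0947), FLOX replicate 2 (0.162), FLOX replicate 3 (0.0653) or FLOX replicate 5 (0.102).

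Acsl1 has 2 annotated starts in the RefSeq table. The window of the start nearer the gene's end (chr8:46490716-46490965, plus strand, build GRCm38.p6, 5′ to 3′) is shown because Acsl1 rose and this was the only window of the 34 with TCACNCCAC, a sterol response pattern of the SREBP factors, on either strand.
Acsl1: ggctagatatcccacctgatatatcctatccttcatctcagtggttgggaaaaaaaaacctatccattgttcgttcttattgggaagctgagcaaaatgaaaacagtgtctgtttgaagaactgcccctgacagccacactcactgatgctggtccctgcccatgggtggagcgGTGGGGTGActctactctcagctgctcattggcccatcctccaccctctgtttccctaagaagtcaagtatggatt
The match, GTGGGGTGA on the strand shown, begins 76 bases before the start, and 1.05% of all windows hold this pattern.

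Transport genes were low. Slc2a4 encodes GLUT4, the insulin-responsive glucose transporter of fat and muscle, and measured 7.74, 10.91 and 5.01 FPKM in CKO and 3.04, 2.78 and 2.64 FPKM in FLOX skin. The FLOX values lay close together and below every CKO value (log2 fold change 1.16, SE 0.22, adjusted p = 0.0519). CKO replicate 2 was the highest, as in the muscle markers described below. It passed without CKO replicate 5 (log2 fold change 1.42, adjusted p = 0.0242). Aqp7, a glycerol channel of adipocytes, was below 1 FPKM in every library (0.22 to 0.92 in CKO, 0.2 to 0.47 in FLOX skin) and was not tested.

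Genes of the glycerol backbone and its acylation split. Gpam rose from 5.36, 5.39 and 5.76 FPKM in FLOX to 9.3, 7.89 and 8.09 FPKM in CKO skin. The groups were far apart for their spread (8.43 ± 0.763 and 5.50 ± 0.223 FPKM, SD, n = 3; log2 fold change 0.53, SE 0.09, limma adjusted p = 0.047). Its fold change was 0.47 to 0.57 with each library left out, and the adjusted p was 0.0682 without CKO replicate 1, 0.11 without CKO replicate 2, 0.162 without FLOX replicate 2, 0.0967 without FLOX replicate 3 and 0.102 without FLOX replicate 5.

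The later enzymes of the same pathway did not pass. Agpat2, which adds the next fatty acid, measured 24.75, 19.49 and 20.54 FPKM in CKO and 19.87, 20.9 and 24.41 FPKM in FLOX skin (log2 fold change -0.01, SE 0.12, adjusted p = 0.973), a difference smaller than the spread of either group. Its sign turned to 0.06 without CKO replicate 2, 0.02 without CKO replicate 5 and 0.07 without FLOX replicate 5. Lpin1, a phosphatidic acid phosphatase, measured 9.39, 9.16 and 5.57 FPKM and 3.9, 6.95 and 5.71 FPKM (log2 fold change 0.47, adjusted p = 0.286; 0.28 without FLOX replicate 2). Dgat1, which adds the last fatty acid, had a lower CKO mean, with 31.17, 21.08 and 25.35 FPKM in CKO and 33.57, 27.51 and 37.19 FPKM in FLOX skin, and the groups overlapped (log2 fold change -0.34, SE 0.16, adjusted p = 0.273; -0.20 without CKO replicate 2).

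The Gpam window of the start nearer the gene's end (chr19:55099478-55099727, minus strand, RefSeq, build GRCm38.p6, 5′ to 3′) is shown because Gpam rose and this window holds AGGTCA, the unit that nuclear receptors such as PPAR gamma and RXR read.
Gpam: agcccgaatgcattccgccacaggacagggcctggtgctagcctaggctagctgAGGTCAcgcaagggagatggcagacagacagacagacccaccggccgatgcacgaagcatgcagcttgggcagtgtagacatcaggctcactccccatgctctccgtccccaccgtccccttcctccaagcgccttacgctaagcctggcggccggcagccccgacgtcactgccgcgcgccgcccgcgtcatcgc
The match begins 196 bases before the start. AGGTCA on either strand was in 9 of the 34 windows (26.5%), those of Acly, Aqp7, Cd36, Gpam, Lpin1, Pparg and Ucp1, and in 14.0% of all windows.

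Pck1 and Gpd1 supply glycerol phosphate from pyruvate and from glycolysis. Pck1, the cytosolic phosphoenolpyruvate carboxykinase, measured 10.06, 3.26 and 1.34 FPKM in CKO and 0.87, 1.44 and 0.57 FPKM in FLOX skin. CKO replicate 1 was 7.51 times CKO replicate 5, and the log2 fold change of 1.31 (SE 0.50, adjusted p = 0.186) was 0.71 without CKO replicate 1. Gpd1 measured 16.82, 12.55 and 8.53 FPKM and 7.84, 5.97 and 10.64 FPKM, again with FLOX replicate 5 above CKO replicate 5 (log2 fold change 0.56, adjusted p = 0.258; 0.34 without CKO replicate 1).

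The lipogenic genes were apart between the groups without passing. Thrsp, the nuclear Spot 14 protein of lipogenic tissues, measured 13.87, 11.5 and 3.8 FPKM in CKO and 2.54, 2.27 and 2.01 FPKM in FLOX skin. The FLOX values had an SD of 0.265 FPKM (n = 3) while CKO replicate 1 was 3.65 times CKO replicate 5, and its log2 fold change, 1.56 (SE 0.38, adjusted p = 0.074), was the largest of the 29. Pcx, pyruvate carboxylase, which feeds carbon to citrate, measured 12.89, 11.49 and 10.19 FPKM and 8.05, 8.27 and 7.33 FPKM (log2 fold change 0.49, SE 0.10, adjusted p = 0.0603). Acly, which splits citrate into the acetyl units of fatty acids, measured 41.66, 44.88 and 38.93 FPKM and 37.47, 38.06 and 37.61 FPKM (log2 fold change 0.14, adjusted p = 0.327; 0.092 without CKO replicate 2). Without CKO replicate 5 Thrsp (log2 fold change 2.06, adjusted p = 0.0168) and Pcx (0.57, adjusted p = 0.0433) passed and Acly did not.

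Of the 5 lipolysis genes Ces1d rose. It measured 11.97, 10.94 and 8.05 FPKM in CKO and 3.81, 2.6 and 4.43 FPKM in FLOX skin, so the lowest CKO value was well above the highest FLOX value. The means were 10.3 ± 2.03 and 3.61 ± 0.931 FPKM (SD, n = 3), a ratio of 2.86, and the log2 fold change was 1.30 (SE 0.19, limma adjusted p = 0.047), or 1.13 to 1.45 with each library left out. Ces1d belongs to a cluster of close copies, so reads may be shared with its neighbours and its level is uncertain. The adjusted p was 0.0538 without CKO replicate 1, 0.113 without CKO replicate 2, 0.162 without FLOX replicate 2, 0.0653 without FLOX replicate 3 and 0.0928 without FLOX replicate 5.

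The classical lipases differed less. Pnpla2, adipose triglyceride lipase, which takes the first fatty acid, measured 65.37, 44.63 and 37.25 FPKM in CKO and 31.57, 38.05 and 40.42 FPKM in FLOX skin (log2 fold change 0.38, adjusted p = 0.317). Lipe, hormone-sensitive lipase, measured 21.49, 16.77 and 12.13 FPKM and 12.18, 11.4 and 14.68 FPKM (0.34, adjusted p = 0.349). In both genes CKO replicate 5 lay within the range of the FLOX values. Without CKO replicate 1 the log2 fold change was 0.16 for each, and that of Lipe was 0.55 without CKO replicate 5.

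Mgll, which releases the last fatty acid from monoglyceride, measured 77.49, 61.69 and 66.67 FPKM in CKO and 43.73, 29.98 and 61.9 FPKM in FLOX skin (log2 fold change 0.64, adjusted p = 0.169; 0.39 without FLOX replicate 3), with FLOX replicate 5 just above CKO replicate 2. Pnpla3, adiponutrin, measured 1.2, 1.54 and 1.09 FPKM in CKO and 0.71, 0.6 and 0.65 FPKM in FLOX skin. Its values were apart, as they had to be for a gene that passed the filter by its CKO libraries alone. It did not pass the test (limma adjusted p = 0.074).

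Regulators and receptors were low or differed little. Pparg, the master transcription factor of adipocytes, which macrophages and sebocytes also express, measured 10.26, 7.03 and 7.03 FPKM in CKO and 6.71, 5.54 and 6.85 FPKM in FLOX skin. The lowest CKO value was just above the highest FLOX value, and the difference did not pass (log2 fold change 0.29, SE 0.15, adjusted p = 0.317; 0.13 without CKO replicate 1). Adrb3, the adrenergic receptor that starts lipolysis in mouse fat, measured 0.11 to 0.27 FPKM in CKO and 0.03 to 0.1 FPKM in FLOX skin. Acvr1c, the activin-type receptor ALK7 of adipocytes, measured 0.15 to 0.29 and 0.05 to 0.11 FPKM. In both the groups were apart, and both were below the filter and were not tested.

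Car3 encodes carbonic anhydrase III, abundant in fat and in slow muscle. It measured 222.95, 137.26 and 84.89 FPKM in CKO and 66.27, 53.26 and 106.01 FPKM in FLOX skin, in the library order of Adipoq (log2 fold change 0.92, SE 0.36, adjusted p = 0.199; 0.58 without CKO replicate 1). Ucp1, the uncoupling protein that marks brown and beige adipocytes, stayed at 0.03 to 0.12 FPKM in all 6 libraries.

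**Figure D2:**
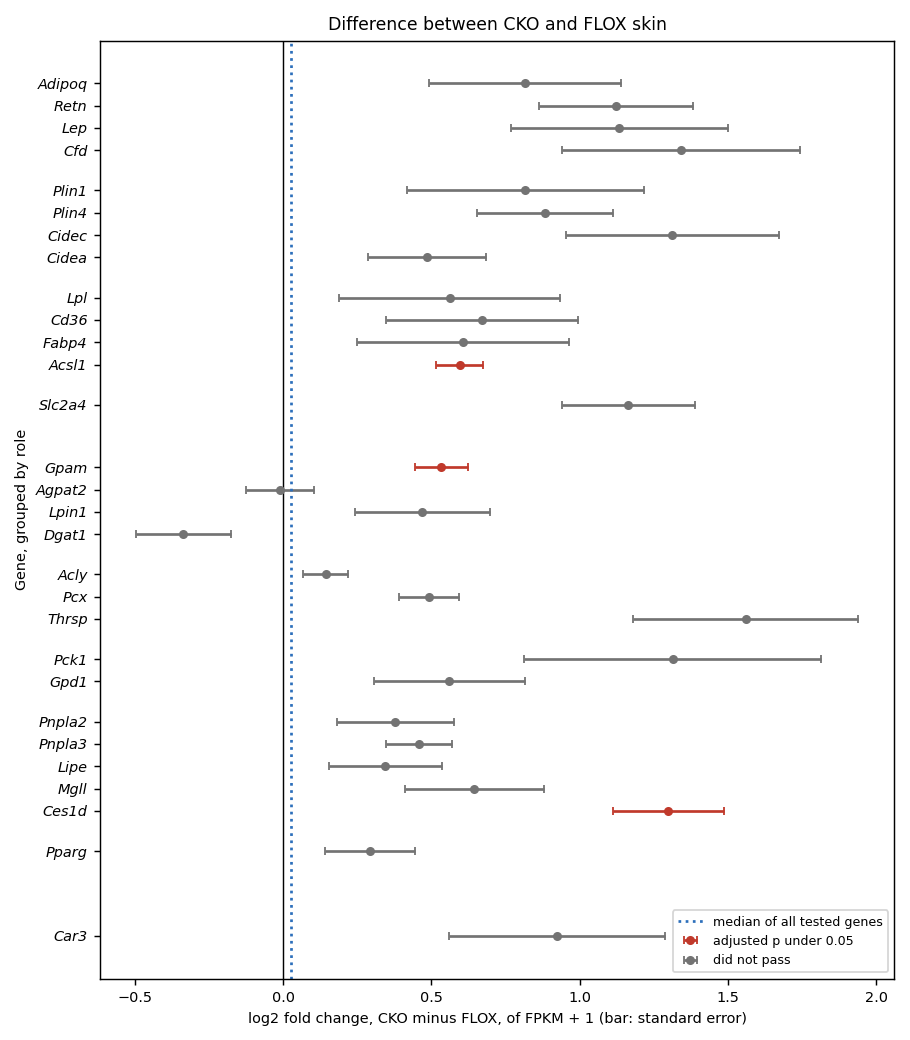
Log2 fold change of FPKM + 1 (CKO minus FLOX) with its standard error for the 29 tested genes, grouped by role; red marks genes with a limma adjusted p under 0.05 and the dotted line the median of all tested genes. Acsl1, Gpam and Ces1d are red, and Agpat2 and Dgat1 are the genes left of 0.

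**Figure D3:**
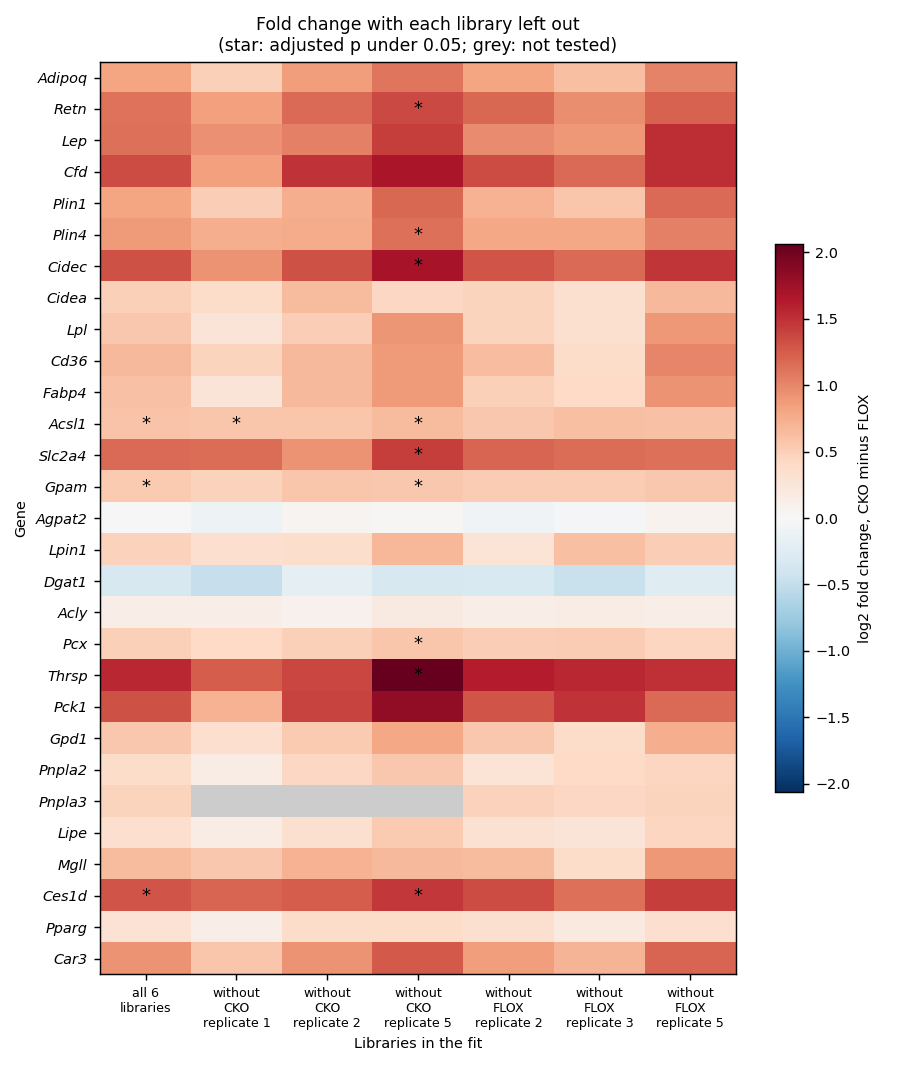
Log2 fold change (CKO minus FLOX) of the tested genes with all 6 libraries and with each library left out; stars mark an adjusted p under 0.05 and grey cells genes below the filter. The column without CKO replicate 5 holds 9 stars, and those without CKO replicate 2 and without each FLOX library hold none. In the fit without CKO replicate 5, 225 genes of the whole table were higher and 192 lower.

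Dividing each gene by Adipoq in the same library shows which genes kept a steady proportion to that adipocyte hormone. Car3 was the steadiest, with a ratio of 4.48 to 5.36 over the 6 libraries, and Fabp4 had ratios of 15.3 to 16.4 in CKO and 16.3 to 21.1 in FLOX skin. The ratio of Cidec was 0.80, 0.777 and 0.631 in CKO and 0.491, 0.531 and 0.467 in FLOX skin, so the groups were apart. Cfd (4.30 to 6.11 in CKO, 3.29 to 3.69 in FLOX skin) was apart in the same direction, as were Retn, Thrsp and Ces1d.

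These 5 of the 28 other tested genes compare with 0.108% of all tested genes whose ratio to Adipoq was higher and apart in CKO skin. Adipoq is among the genes higher in CKO means, so few genes exceed it. It also varied within the CKO group (43.86 to 17.91 FPKM), and FLOX replicate 5 (20.57 FPKM) lay above CKO replicate 5. A gene that does not follow Adipoq from library to library therefore seldom has ratios higher and apart. The low share is in part set by the divisor, so no conclusion is drawn from the contrast. Ratios of 4 of the 28 genes, Agpat2, Dgat1, Gpd1 and Lipe, were lower and apart in CKO skin. This is no larger a share than the 16.3% of all tested genes, so it does not set these genes apart from the rest. Lipe measured 0.490, 0.655 and 0.677 of Adipoq in CKO and 0.823, 1.03 and 0.714 in FLOX skin. Acsl1 and Gpam, which rose in level, overlapped when divided by Adipoq, with Acsl1 at 0.785 to 1.71 and at 1.06 to 1.996. No test was made on these ratios, since Adipoq was chosen as the divisor with its values known.

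**Figure D4:**
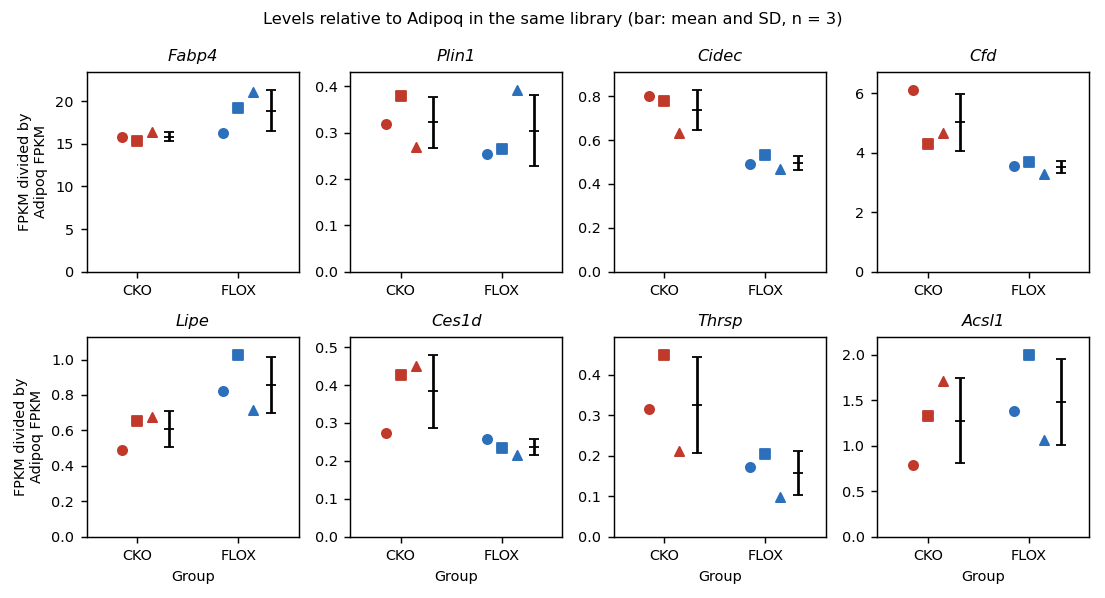
FPKM of 8 genes divided by Adipoq FPKM in the same library, with the mean and SD of each group (n = 3) as a black bar; circles, squares and triangles are replicates 1, 2 and 5 for CKO and 2, 3 and 5 for FLOX. Cidec, Cfd, Ces1d and Thrsp have CKO ratios above all FLOX ratios, Lipe has them below, and Fabp4, Plin1 and Acsl1 overlap.

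Other genes of the lipid pathways were read from lists written for these tissues. None of 9 tested adipogenic transcription factors passed. The most abundant were Cebpa, a C/EBP factor of mature adipocytes and of epidermis (79.78, 105.12 and 79.48 FPKM in CKO against 58.94, 60.58 and 60.2 FPKM in FLOX skin, log2 fold change 0.54, adjusted p = 0.0639), and Cebpb, an early one (75.66, 63.31 and 68.05 against 75.86, 78.62 and 104.67 FPKM). Their signs were opposite. None of 12 other droplet and caveola genes passed, among them Plin2, the perilipin found in most cells (81.8 to 114.2 FPKM in CKO and 89.9 to 106.6 FPKM in FLOX skin), and Cav1, the caveolin of fat and endothelium (107 to 155 and 79.3 to 114.8 FPKM).

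All 10 other genes of fatty acid synthesis had positive fold changes with a median of 0.47, 7 of them were higher and apart between the groups, and none passed. Over all tested genes 56.1% were positive and 15.5% higher and apart. Scd1, the desaturase of adipocytes and sebocytes, measured 422.12, 579.12 and 391.24 FPKM in CKO and 300.65, 265.07 and 386.17 FPKM in FLOX skin (adjusted p = 0.148). Scd2 measured 53.8 to 63.2 and 40.1 to 44.6 FPKM (adjusted p = 0.0649). CKO replicate 2, not replicate 1, was the highest library for both desaturases. Of 8 other triglyceride synthesis genes none passed. Agpat3, a relative of Agpat2, measured 23.84, 22.4 and 21.56 FPKM in CKO and 15.63, 16.26 and 18.49 FPKM in FLOX skin (adjusted p = 0.0639). Dgat2, which does the same step as Dgat1, measured 63.1 to 78.8 FPKM in CKO and 50.8 to 60.2 FPKM in FLOX skin (log2 fold change 0.36, adjusted p = 0.105), so the means of the DGAT pair differed in opposite directions.

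Among 11 tested genes of hormonal control, Hcar2 fell and the other 10 did not pass. Hcar2, the nicotinic acid receptor that restrains lipolysis and is also found on macrophages, neutrophils and keratinocytes, measured 28.58, 29.11 and 35.62 FPKM in CKO and 49.37, 48.19 and 44.35 FPKM in FLOX skin (log2 fold change -0.59, SE 0.10, adjusted p = 0.0489). The adjusted p of Hcar2 was 0.0689 without CKO replicate 1, 0.125 without CKO replicate 2, 0.162 without FLOX replicate 2, 0.0993 without FLOX replicate 3 and 0.102 without FLOX replicate 5. The kinase gene Akt2 of insulin signalling measured 55.2 to 61.3 and 58.9 to 63.5 FPKM. None of 12 tested genes of fatty acid oxidation and thermogenesis passed. Of the 14 measured, 11 were higher and apart, against 15.5% of all tested genes. The 11 include Ppara, which was below the filter (0.19 to 0.64 FPKM) and so has no counterpart in that share. Of the 14, 6 were highest in CKO replicate 2 (Cox8b, Cox7a1, Cpt1b, Prdm16, Hadhb and Ppara) and 5 in CKO replicate 1. Muscle also expresses Cox8b, Cox7a1 and Cpt1b, and its part in their values was not tested. Hadhb (67.1 to 70.7 and 58 to 61.2 FPKM) and Acadl (59.1 to 65.3 and 47.5 to 53.2 FPKM), enzymes of mitochondrial fatty acid oxidation, were the most abundant.

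None of 14 tested further adipocyte genes passed, and 10 had positive and 4 negative fold changes. Rarres2, which encodes chemerin and is also made by epidermis, measured 423.9, 270.13 and 351.36 FPKM in CKO and 472.22, 516.17 and 463.11 FPKM in FLOX skin (log2 fold change -0.49, adjusted p = 0.13), and Angptl4, an inhibitor of Lpl, 36.8 to 42.3 and 34.9 to 76.1 FPKM. Cyp2e1, a cytochrome P450 of liver and fat, was singled out after its values were seen. It measured 16.46, 7.45 and 4.38 FPKM in CKO and 1.29, 1.37 and 0.59 FPKM in FLOX skin (log2 fold change 2.17, adjusted p = 0.0514), in the CKO order of Cfd and Thrsp. None of the 8 tested precursor markers passed, and the stem cell antigen gene Ly6a measured 557 to 763 and 426 to 561 FPKM and Cd34 64.3 to 84.6 and 57.6 to 63.3 FPKM.

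Markers of other tissues moved with the groups as well. All 16 skeletal muscle markers had positive fold changes (median 1.52) and 14 were higher and apart between the groups, against 56.1% and 15.5% of all tested genes. Myh2, a myosin of fast fibres, rose (4.95 to 7.07 FPKM in CKO against 1.08 to 2.09 FPKM in FLOX skin, adjusted p = 0.047). The adjusted p of Myh2 was 0.0932 without CKO replicate 2, 0.162 without FLOX replicate 2, 0.0553 without FLOX replicate 3 and 0.0865 without FLOX replicate 5. The summed level of the 16 muscle markers was 844.5 to 2221 FPKM in CKO and 311.0 to 656.6 FPKM in FLOX skin, and none was at 0. Acta1 (140 to 377 and 44.1 to 97.8 FPKM) and Mylpf (139.6 to 352 and 58.9 to 121 FPKM) were the most abundant. The order of libraries of the muscle markers differed from that of the adipocyte genes. CKO replicate 2 was the highest library for 14 of the 16, and FLOX replicate 5, the FLOX library with the most Adipoq, Fabp4 and Plin1, was the lowest for all 16. The part of muscle in the values of Slc2a4, Lpl and Car3 was not tested.

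Sebocyte markers shared the most frequent highest and lowest library of the 33 genes and differed from them in CKO replicate 5. None of the 8 tested passed and all had positive fold changes (median 0.56; 56.1% of all tested genes did). Of the 10 markers, 1 was higher and apart between the groups, against 15.5% of all tested genes. The summed level of the 10 markers was 259.6 to 338 FPKM in CKO and 154 to 249 FPKM in FLOX skin, with Krt79, a keratin of the sebaceous duct (117 to 155 and 49.9 to 94.5 FPKM), and Awat1, a wax synthase (28.5 to 46.0 and 17.4 to 35.1 FPKM), the most abundant. CKO replicate 1 was the highest library for 6 of the 10, as it was for 28 of the 33 genes. CKO replicate 5 was the highest for 3 of the 10 and for 0 of the 33. FLOX replicate 3 was the lowest library for 8 of the 10, as it was for 19 of the 33 genes, Cidea among them. Their part in the values of Cidea and Pparg was not tested.

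Macrophage markers went the other way, with 9 of 10 negative (median -0.24), whereas 56.1% of all tested genes were positive. Of the 10, 6 were lower and apart between the groups, against 11.4% of all tested genes. Itgam, an integrin chain of macrophages and neutrophils, fell from 37.6 to 41.3 FPKM in FLOX to 22.5 to 27.6 FPKM in CKO skin (log2 fold change -0.67, adjusted p = 0.047). The adjusted p of Itgam was 0.0947 without CKO replicate 2, 0.162 without FLOX replicate 2, 0.0755 without FLOX replicate 3 and 0.102 without FLOX replicate 5. The summed level of the 10 was 3379 to 3905 FPKM in CKO and 3863 to 4205 FPKM in FLOX skin, led by Lyz2 (1455 to 1786 and 1420 to 1929 FPKM) and C1qb (453 to 567 and 575 to 642 FPKM). The sum was lower in 2 CKO libraries than in any FLOX library, and in CKO replicate 1 (3905 FPKM) it was above FLOX replicate 3 (3863 FPKM). Macrophages share Fabp4, Cd36 and Lpl with adipocytes, and their part in the values of these genes was not tested. Among epidermal markers none of 9 passed and all were positive (median 0.66), against 56.1% of all tested genes. Of the 9, 8 were higher and apart between the groups, against 15.5%. Their summed levels were 9768 to 12717 FPKM in CKO and 8190 to 8593 FPKM in FLOX skin. The sums were led by Krt14 and by Krtdap, a gene of differentiating keratinocytes (2620 to 3171 and 2174 to 2576 FPKM). These had the smallest log2 fold changes of the 9 (0.14 and 0.28), and Krt10 had the largest (1.37, limma adjusted p = 0.0514). Of 10 hair markers found, 9 were below 1 FPKM in every library and 1 of these was at 0 throughout. Krt73, a keratin of the inner root sheath, measured 0.11 to 0.25 FPKM in CKO and 0.18 to 0.4 FPKM in FLOX skin, and Tchh, a root sheath protein, measured 25.0 to 70.3 FPKM in CKO and 55.0 to 103.9 FPKM in FLOX skin.

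**Figure D5:**
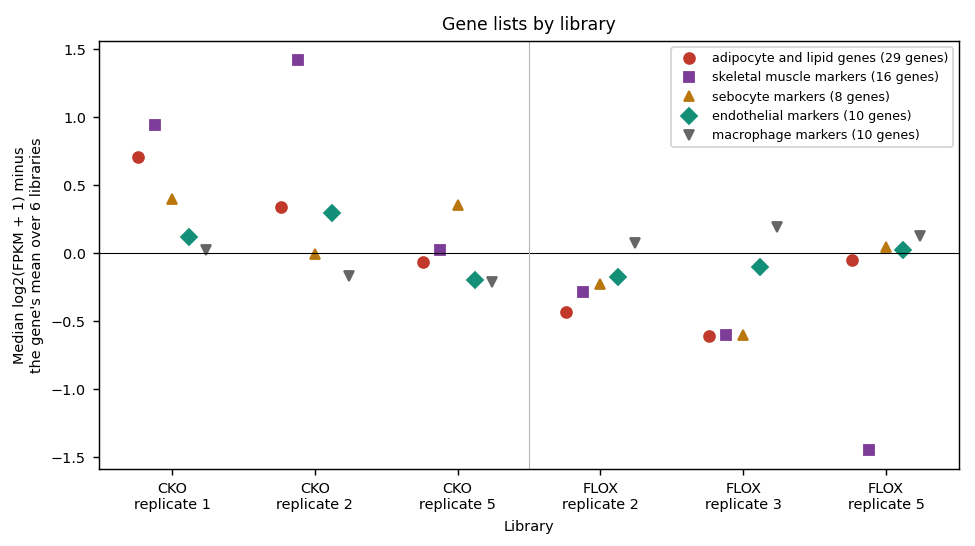
Median over the genes of a list of log2(FPKM + 1) minus each gene's mean over the 6 libraries, for the tested adipocyte and lipid genes and markers of 4 other cell types. The adipocyte and lipid genes are highest in CKO replicate 1 (0.70) and nearly equal in CKO replicate 5 (-0.07) and FLOX replicate 5 (-0.05), whereas muscle markers are highest in CKO replicate 2 (1.42) and lowest in FLOX replicate 5 (-1.45).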

How the data were processed

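Polyadenylated RNA of mouse skin was bound to oligo(dT) beads and sequenced from one end in 6 libraries, per the labels' protocols. The submitters' processing notes name HISAT as the aligner without a version, and which counter, build and annotation were used is not given in the sources used here. Values are FPKM as the authors deposited them, per the file headers, rounded to 2 decimals. Because FPKM is relative to a library's total, a rise of abundant genes lowers the others. Nothing in the labels says that libraries came from separate animals, so the p-values reflect the spread among these libraries alone, and that spread may be technical.

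The 33 genes and all lists were chosen with earlier results of these data known. The filter of 1 FPKM in 3 libraries kept 12994 genes and removed 5945. The design named a count test or limma, by unit, and limma fits FPKM. CKO and FLOX were compared on log2(FPKM + 1), a scale that understates the change of low genes, with limma 3.58.1 in R 4.3.3 (empirical Bayes with intensity trend, two-sided, Benjamini-Hochberg adjustment over all tested genes, threshold 0.05), after the procedure was tested on simulated data. Named genes were the 33, Vamp7 and, of each list, genes past the threshold and the 2 with the highest mean. Gpihbp1, Cyp2e1, Krt10 and some genes of fatty acid oxidation were named outside this rule. Promoter windows came from a RefSeq table of GRCm38.p6, matched by gene ID, and 12 motifs were searched on both strands; the build of the deposited table is not given, and the windows do not depend on it. Alternatives were pseudocounts of 0.1 and 5, no filter or one at 5 FPKM, median-ratio scaling, quantile normalization, other empirical Bayes settings, the replicate number as a block, and leaving out each library.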

Additional observations from a re-analysis of the deposited data

How the results depend on the processing

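The count of the 33 genes higher in CKO skin, 3, was 0 with no filter, quantile normalization, no intensity trend or robust empirical Bayes (limma). At an unadjusted p under 0.05, 14, 17, 17 and 17 of them were higher there. Over all genes 2058 of 18939 were higher with no filter, and 1289, 1675 and 1635 of 12994 in the others. Leaving out each library gave 0 to 9 of the 33 passing. None fell in any setting. Over all genes, 46 higher and 78 lower became 0 and 1 with no filter, 0 and 0 with quantile normalization (1289 and 1343 at an unadjusted p under 0.05), 15 and 17 with no trend, 4 and 6 with robust fitting, 71 and 116 with the filter at 5 FPKM, 42 and 116 with median-ratio scaling, and 0 to 225 and 0 to 192 with each library left out. The median log2 fold change of the tested genes of the 33 was 0.36 to 0.90 over all settings. Of 877 single-gene values under alternatives, 801 kept direction and side of the threshold, 57 lost their call, 10 gained one and 9 turned sign, all 9 with a library left out: those of Agpat2 (0.06 without CKO replicate 2, 0.02 without CKO replicate 5, 0.073 without FLOX replicate 5; range -0.11 to 0.073), Plin2 (0.02, 0.036 and 0.03 without the same libraries; -0.20 to 0.036), Lyz2 (0.013 without FLOX replicate 5; -0.21 to 0.013), Pecam1 (-0.033 without CKO replicate 2; -0.033 to 0.24) and Tchh (0.0081 without CKO replicate 2; -0.72 to 0.0081). The cause was not tested. Only genes that passed with all 6 libraries could lose a call, so the share of the 877 does not measure how stable the calls were. Acsl1 kept its call in 6 of 15 alternatives, Ces1d in 5 of 15 and Gpam in 4 of 15. Outside the 33 genes, Itgam kept it in 6 of 15, Hcar2 in 3 of 15 and Myh2 in 8 of 14.

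Replicate numbers 2 and 5 occur in both groups, and nothing in the labels says that they pair the libraries; deviations from the group means correlated at 0.13 for number 2 and -0.11 for number 5, across genes. With the replicate number as a block, 117 genes were higher and 102 lower, and none of the 33 passed. At an unadjusted p under 0.05 (limma), 11 of them were higher and 1 was lower, beside 1109 and 885 of all 12994 tested genes. The median of the tested genes of the 33 was 0.36. Read depth is unknown, so what depth limits could not be measured.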
